A study of Sus scrofa domesticus with 4 samples.

Results

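The genes described here are those of the urokinase system, the matrix metalloproteinases and their tissue inhibitors in pig endometrium, the lining of the uterus, kept in culture with or without orexin B. The members were 9 genes listed by symbol, and a probe belonged to a member when its RefSeq accession mapped to that symbol. Of the 9 genes, 8 had a probe, with 18 probes among 43603 on the array. No probe mapped to PLAUR, the urokinase receptor, so it was dropped. The proteases were PLAU (2 probes), PLAT (6), MMP1 (1), MMP2 (2), MMP3 (1) and MMP9 (2), and the inhibitors were TIMP1 (3) and TIMP2 (1).

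The explants came from 4 mature crossbred gilts (Large White x Polish Landrace, 7 to 8 months old), which were pregnant for 15 to 16 days. The treated group received orexin B, a neuropeptide of the hypothalamus, at 10 nM for 24 h. The untreated group was kept for the same 24 h in the same medium with nothing added, and both groups had a preincubation of 2 h. Each of 4 Agilent arrays compared treated with untreated RNA in opposite dyes. The treated RNA carried Cy5 on arrays 1 and 3, whereas on arrays 2 and 4 it carried Cy3. The labels name 4 animals and 4 separate experiments without tying them to arrays, so p-values measure the spread between arrays only. In whole explants, fewer cells of a type and less RNA per cell cannot be told apart.

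Urokinase (PLAU) and tissue plasminogen activator (PLAT) cut plasminogen into plasmin, a broad protease that dissolves fibrin and helps to activate secreted metalloproteinases. The metalloproteinases are made as inactive precursors and cut collagens, gelatins and proteoglycans, and the TIMP proteins block them by binding the active site. In pregnancy, this balance remodels the uterine matrix. The pig conceptus attaches to the uterine epithelium without invading the uterine wall, although pig trophoblast can degrade matrix when placed elsewhere.

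Array 2 lay on another slide and had another scan date than arrays 1, 3 and 4, per the file headers. The deposited name of its scan carries the same slide number as the others, and the header was used. On it 46.8% of spots were well above background in Cy5, against 82.4% to 86.7% on the other arrays, and the Cy3 share was 27.8% to 36.2%. Of the 10 genes listed as endometrial markers, 7 had a probe and 6 of these passed the filter (ACP5, ESR1, KRT8, PGR, RBP4 and SPP1).

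Of the 18 member probes, 16 passed the filter on dim probes, which asks for signals well above background on all 4 arrays in at least 1 condition. Each of the 8 genes had such a probe and is represented by its brightest one. Ratios are log2 values of treated over untreated, where a value of 1 is a doubling, from a limma fit with a treatment term and a dye term, given with the moderated standard error (±). No member passed the threshold of 0.05 on the adjusted p in limma (0.999 for each member), and 0% of the 13783 probes tested did. At an unadjusted p under 0.05 there were 0 of 8 member genes, where 3.59% of all tested probes were called (1.72% higher and 1.87% lower). The treated and untreated signals of all 16 tested member probes overlapped, as did those of all but 0.413% of tested probes. None of the 15 member probes with a value on all arrays had a ratio of the same sign on all 4, as 7.41% of tested probes had.

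PLAU, which starts the plasmin cascade on cell surfaces, had the ratio with the smallest unadjusted p of the 8 genes. Its normalized log2 signal was 16.39, 16.00, 16.33 and 15.93 in treated RNA of arrays 1 to 4, against 15.17, 16.29, 15.23 and 16.39 in untreated RNA. The treated signals lay within 0.47 log2 units, with arrays 1 and 3 above arrays 2 and 4. The untreated ones spread over 1.22 log2 units in the opposite order, with a low pair (arrays 1 and 3) and a high pair (arrays 2 and 4). In both groups the higher pair was the one labelled with Cy5, and the groups overlapped. The ratio on arrays 1 to 4 was thus 1.22, -0.29, 1.11 and -0.46. The fitted ratio was 0.39 ± 0.17 (limma, n = 4 arrays, 95% interval -0.01 to 0.80, unadjusted p = 0.0532), or 1.31-fold. The per-array ratio was positive on both arrays with treated RNA in Cy5 (mean 1.16) and negative on both with treated RNA in Cy3 (mean -0.37).

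The same 4 values read by dye gave a single direction. Cy5 over Cy3 for PLAU was 1.22, 0.29, 1.11 and 0.46 on arrays 1 to 4, above 0 on all 4, as for 11.2% of tested probes. The dye term was 0.77 ± 0.17 (95% interval 0.37 to 1.17), or 1.71-fold, and so larger than the treatment ratio. In limma it had an unadjusted p = 0.00266 and an adjusted p = 0.290, while 14.1% of all tested probes had a dye term with an unadjusted p under 0.05. Its signed value was above that of 99.3% of tested probes, and its size above that of 96.8%, against 86.4% for the size at the dimmer PLAU probe. The dimmer PLAU probe had a dye term of 0.50 ± 0.18 beside a treatment ratio of 0.35 ± 0.18. On array 4 the treated over untreated ratio of this probe was 0.08, against -0.46 for the brighter one. Its Cy5 over Cy3 ratio was thus -0.08 there, and above 0 on 3 of 4 arrays only.

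PLAT, the plasminogen activator of vessels, followed the same dye pattern and had a fitted ratio of the other sign. Its normalized log2 signal was 13.93, 13.05, 14.12 and 13.47 in treated RNA of arrays 1 to 4, against 13.21, 13.82, 14.07 and 14.67 in untreated RNA. The ratios of 0.73, -0.77, 0.05 and -1.20 were again positive with treated RNA in Cy5 and negative with treated RNA in Cy3. The fitted ratio was -0.30 ± 0.20 (limma, n = 4 arrays, 95% interval -0.77 to 0.17), and it was -0.46 without array 1, -0.40 without array 2, -0.19 without array 4 and -0.13 without array 3. The dye term was 0.69 ± 0.20 (limma, unadjusted p = 0.0104, adjusted p = 0.301). All 5 tested PLAT probes had a fitted ratio below 0, between -0.30 and -0.04, and 4 of the 5 had a dye term between 0.49 and 0.69, with the fifth at 0.07.

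**Figure D1:**
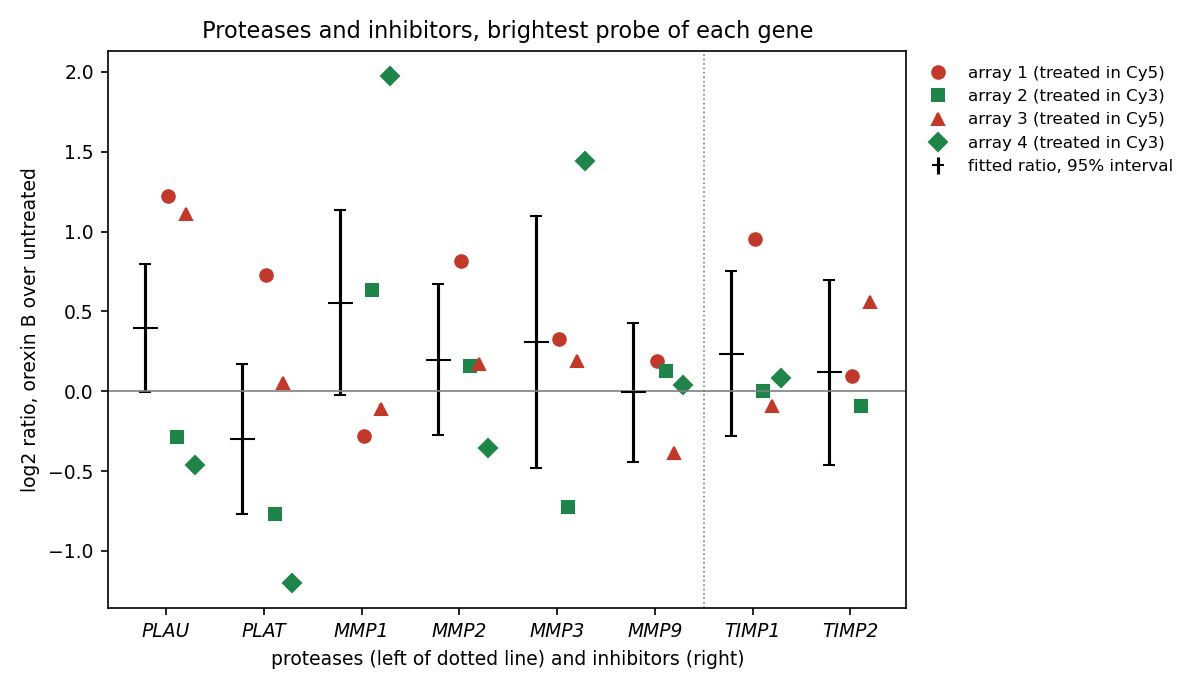
Log2 ratio of orexin B over untreated for the brightest probe of each gene, with coloured symbols for the 4 arrays and a black bar for the fitted ratio and its 95% interval. For PLAU and PLAT the arrays with treated RNA in Cy5 lie above 0 and those with treated RNA in Cy3 below it, MMP1 shows the opposite order, and all 8 intervals include 0.

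MMP1, the interstitial collagenase, had the highest fitted ratio of the 8 genes and the mirror image of this dye pattern. Its normalized log2 signal was 12.71, 14.76, 13.50 and 13.25 in treated RNA of arrays 1 to 4, against 12.99, 14.13, 13.62 and 11.27 in untreated RNA. The ratios of -0.28, 0.64, -0.11 and 1.97 were negative with treated RNA in Cy5 and positive with treated RNA in Cy3. The normalized Cy5 over Cy3 ratio of MMP1 was thus below 0 on all 4 arrays, as for 15.6% of tested probes. The fitted ratio was 0.55 ± 0.25 (limma, n = 4 arrays, 95% interval -0.03 to 1.13, unadjusted p = 0.0583), or 1.47-fold. The dye term was -0.75 ± 0.25 (limma, unadjusted p = 0.0182, adjusted p = 0.302). Leaving out array 4 gave a ratio of 0.22, and leaving out array 2 gave 0.89.

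MMP3, the stromelysin that can activate other metalloproteinases, is the gene next to MMP1, with 0 protein-coding genes between them in the RefSeq table of Sscrofa11.1. Its normalized log2 signal was 11.96, 12.67, 11.90 and 11.26 in treated RNA of arrays 1 to 4, against 11.63, 13.40, 11.71 and 9.81 in untreated RNA. The ratios were 0.33, -0.73, 0.19 and 1.44, with both the highest and the lowest on arrays with treated RNA in Cy3. The fitted ratio was 0.31 ± 0.33 (limma, n = 4 arrays, 95% interval -0.48 to 1.10) and the dye term -0.05 ± 0.33. Without array 4 the ratio was -0.23, and without array 2 it was 0.85.

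MMP1 and MMP3 shared an ordering of the arrays that the ratio does not show. On array 4, where both ratios were highest, the treated signal of MMP1 lay within the range of the other arrays and that of MMP3 was the lowest of the 4, and the untreated signal was the lowest of the 4 for both genes. The mean of both channels ran from 12.26 (array 4) to 14.44 (array 2) for MMP1 and from 10.53 to 13.04 for MMP3, on the same arrays. These ranges, 2.18 log2 units for MMP1 and 2.50 for MMP3, exceeded those of 98.6% and 99.2% of tested probes in that order, whose median range was 0.78. Within the slide that the headers give for arrays 1, 3 and 4 they were 1.30 and 1.27, above 91.8% and 91.2% of probes. The arrays thus differed more in these probes' signals than in those of most others. Within that slide, MMP1 had a fitted ratio of 0.89 and MMP3 one of 0.85, given with no p, since array 4 was then the single array with treated RNA in Cy3. On 2 of these 3 arrays the MMP1 ratio was below 0. On the same 3 arrays PLAU stood at 0.35, PLAT at -0.40, MMP2 at 0.07, MMP9 at -0.03 and TIMP1 at 0.26.

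MMP2 and MMP9, the gelatinases, which cut denatured collagen and basement membrane collagen, showed small ratios. MMP2 had a normalized log2 signal of 15.39, 14.79, 15.14 and 15.06 in treated RNA of arrays 1 to 4, against 14.58, 14.63, 14.97 and 15.41 in untreated RNA. Its ratio was above 0 on 3 of 4 arrays, and array 4 was the exception at -0.35. The fitted ratio was 0.20 ± 0.20 (95% interval -0.28 to 0.67), and the other MMP2 probe was at 0.16.

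MMP9 had a normalized log2 signal of 10.50, 10.34, 10.37 and 10.03 in treated RNA of arrays 1 to 4, against 10.31, 10.21, 10.76 and 9.99 in untreated RNA. The signals of both groups overlapped almost wholly, and the fitted ratio was -0.01 ± 0.19 (95% interval -0.44 to 0.43). Its dye term was -0.09 ± 0.19, the smallest in size but for MMP3 among the brightest probes.

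**Figure D2:**
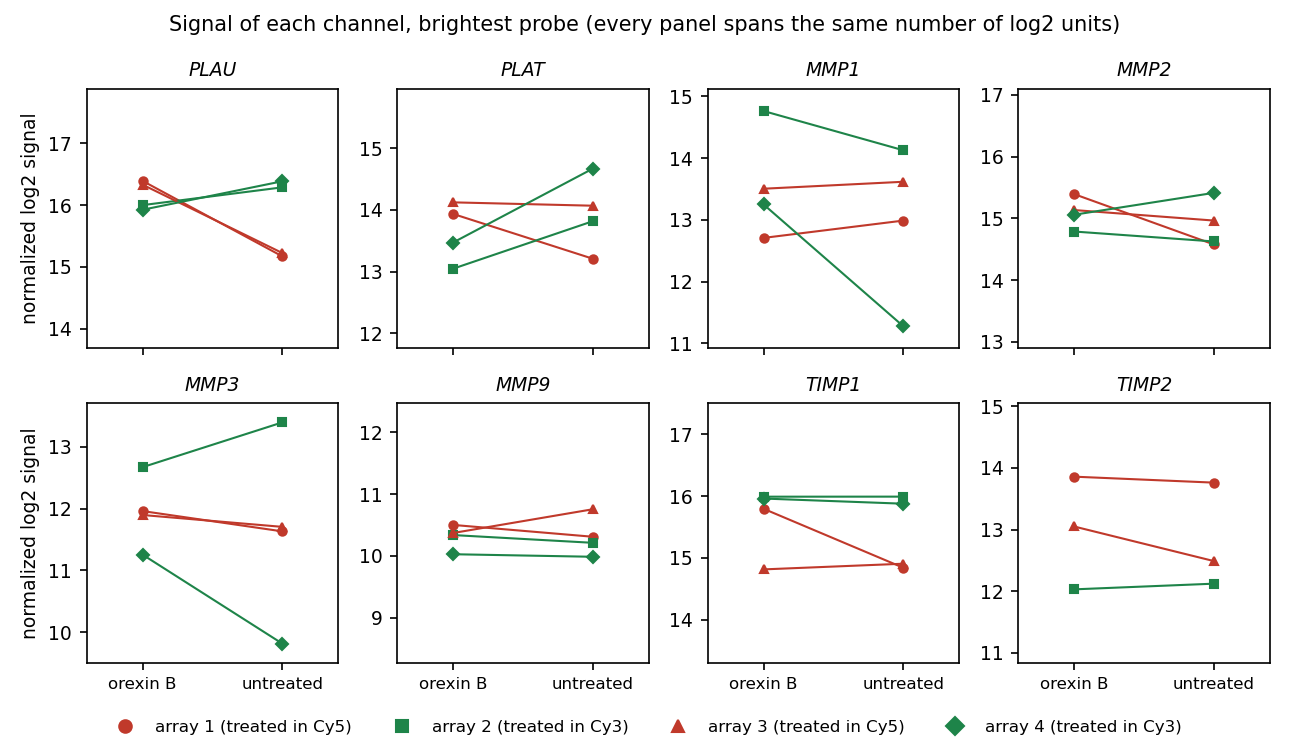
Normalized log2 signal of treated (left) and untreated (right) RNA for the brightest probe of each gene, with a line for each array. Levels are comparable within a panel only. In untreated RNA MMP1 and MMP3 spread most between arrays, with signals from 11.27 to 14.13 and from 9.81 to 13.40, and the TIMP2 panel has 3 arrays.

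TIMP1, an inhibitor of most secreted metalloproteinases, had its highest ratio on array 1 with each of its 3 probes. Its normalized log2 signal was 15.79, 15.99, 14.81 and 15.96 in treated RNA of arrays 1 to 4, against 14.84, 15.99, 14.90 and 15.88 in untreated RNA. The ratios of this brightest probe were 0.96, 0.00, -0.09 and 0.08, and the fitted ratio was 0.24 ± 0.22 (limma, n = 4 arrays, 95% interval -0.28 to 0.75). Without array 1 the ratio was -0.03. The 3 probes lay at 0.96 to 1.02 on array 1, and at -0.27 to 0.00, -0.17 to 0.24 and 0.07 to 0.42 on arrays 2, 3 and 4, so that they differed in sign on array 3. Their fitted ratios were 0.24 to 0.27. Their dye terms were 0.15 to 0.37.

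TIMP2, which inhibits MMP2 and also takes part in its activation at the cell surface, had a value on 3 arrays only. Its spot on array 4 was marked as a non-uniform outlier and left out, and the local Cy3 background there was 4461 intensity units, against a median of 42 on that array. On arrays 1 to 3 the normalized log2 signal was 13.86, 12.03 and 13.05 in treated RNA, against 13.76, 12.12 and 12.49 in untreated RNA. The ratios were 0.10, -0.09 and 0.56, and the fitted ratio was 0.12 ± 0.24 (limma, n = 3 arrays, 95% interval -0.46 to 0.70). With the marked spot kept it was 0.24. Leaving out array 1 gave 0.23, and leaving out array 3 gave 0.0023.

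**Figure D3:**
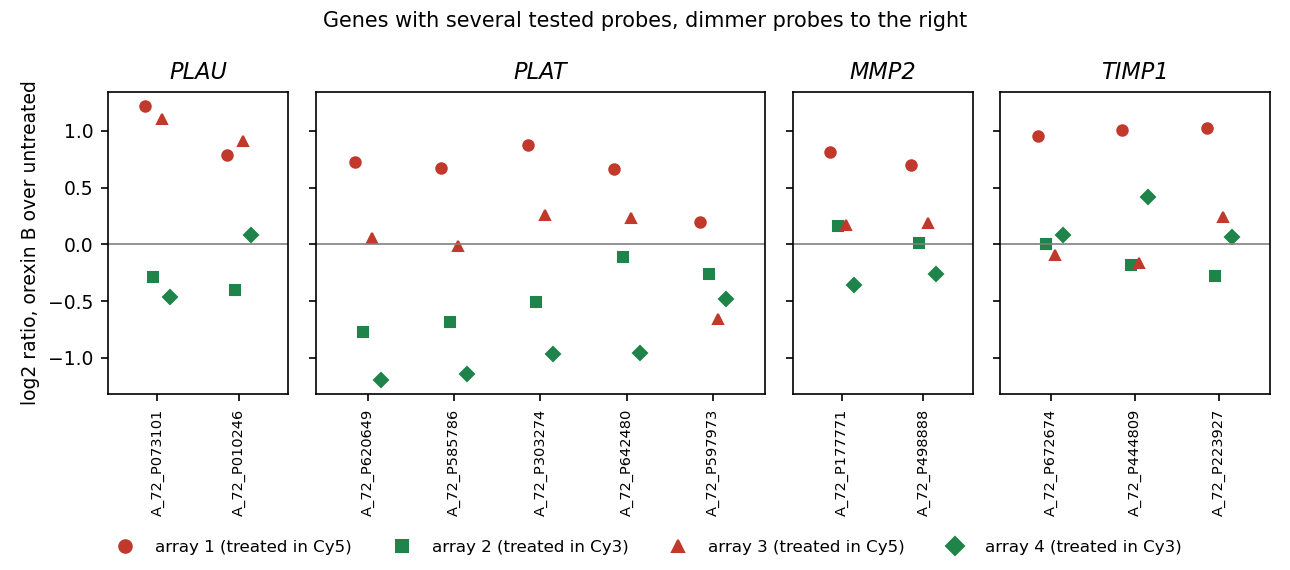
Log2 ratio of orexin B over untreated on each array for every tested probe of the 4 genes with several, brighter probes to the left. The probes of TIMP1 lie close together on array 1 (0.96 to 1.02) and further apart on array 4 (0.07 to 0.42), and those of PLAT on array 3 (-0.66 to 0.26) overlap those on array 2 (-0.77 to -0.11).

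On average, probes of the same gene differed less on an array than the arrays differed from each other, although the probes of single arrays overlapped. The mean SD between probes was 0.23 for PLAU, 0.30 for PLAT, 0.07 for MMP2 and 0.15 for TIMP1. The SD between arrays of the mean over probes was 0.74, 0.67, 0.44 and 0.51 for the same genes. The probes of a gene share its RNA and the array, so they are no replicates of the treatment. Another PLAT probe and another MMP9 probe did not pass the filter.

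Proteases and inhibitors did not separate. The protease group includes PLAU and PLAT, whereas the TIMP proteins block metalloproteinases, so the groups are not enzymes matched with their inhibitors. The metalloproteinases were not compared as a group of their own. Of the 6 protease genes, 4 had a fitted ratio above 0 and 2 below it, with a median of 0.25, and both inhibitors were above 0, with a median of 0.18. Over all tested probes, 53.1% had a ratio above 0 and the median was 0.02. On arrays 1 to 4 the median of the proteases was 0.53, -0.08, 0.11 and -0.16, and that of the inhibitors was 0.53, -0.05, 0.23 and 0.08, where array 4 has TIMP1 alone. Both medians were highest on array 1. The difference between proteases and inhibitors was 0.00, -0.03, -0.12 and -0.24, with a mean of -0.10 ± 0.11 (SD, n = 4). With the scanner software's ratio it was 0.0068, with 2 of 4 arrays above 0. No p is given, since the members were chosen with results of these data known.

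Counted by probe, the mean difference had the same sign and a wider spread. Of the 12 protease probes, 6 had a ratio above 0 and 6 below it, where 5 of those below were PLAT probes, and all 4 inhibitor probes were above 0. The per-array difference of the probe medians was -0.29, -0.14, 0.10 and -0.49, with a mean of -0.20 ± 0.25 (SD, n = 4). Against TIMP1 alone, the number of proteases with the higher ratio was 1, 3, 4 and 2 of 6 on arrays 1 to 4. PLAU minus TIMP1 was 0.27, -0.29, 1.20 and -0.55 on these arrays, and so had the sign pattern of PLAU itself.

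**Figure D4:**
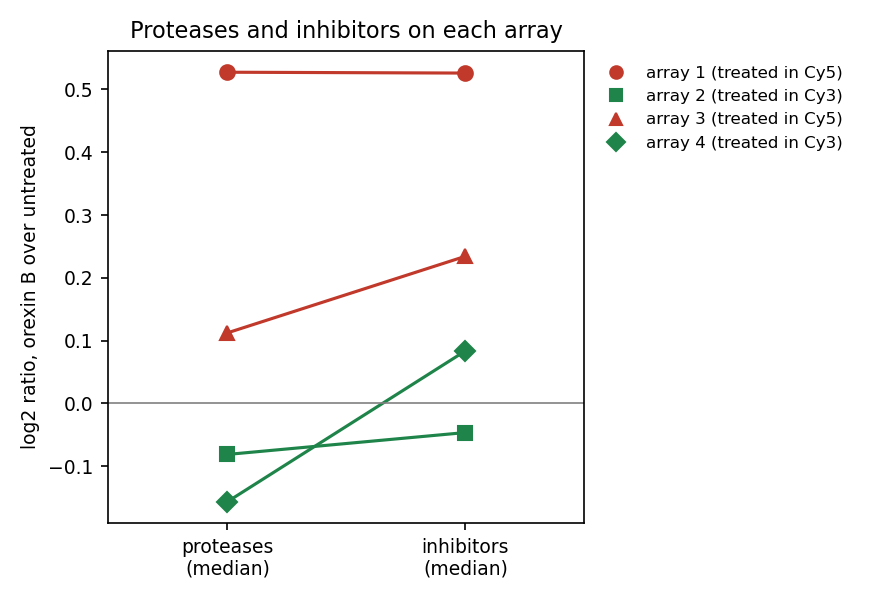
Median log2 ratio of orexin B over untreated of the 6 proteases (left) and of the inhibitors (right) on each array, joined by a line. Array 1 has both medians at 0.53, and the protease median is lower than the inhibitor median by 0.03 to 0.24 on arrays 2, 3 and 4.

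The dye term was larger in size than the treatment term for 5 of 6 proteases and 1 of 2 inhibitors, against 64.0% of all tested probes. At an unadjusted p under 0.05 a dye term was found for 6 of 12 protease probes (both of PLAU, 3 of PLAT and that of MMP1) and 0 of 4 inhibitor probes, where 14.1% of all tested probes were called and 4.72% were called with Cy5 above Cy3. The MMP1 probe alone of these had a dye term below 0. Of the 8 member genes, 5 had a dye term above 0 with their brightest probe, against 44.5% of all tested probes. Counted by probe it was 13 of 16, where probes of the same gene are not independent. The dye terms ran from -0.75 for MMP1 to 0.77 for PLAU among proteases, against 0.15 to 0.37 among inhibitor probes. Whether proteases and inhibitors differ in the dye term was not tested.

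**Figure D5:**
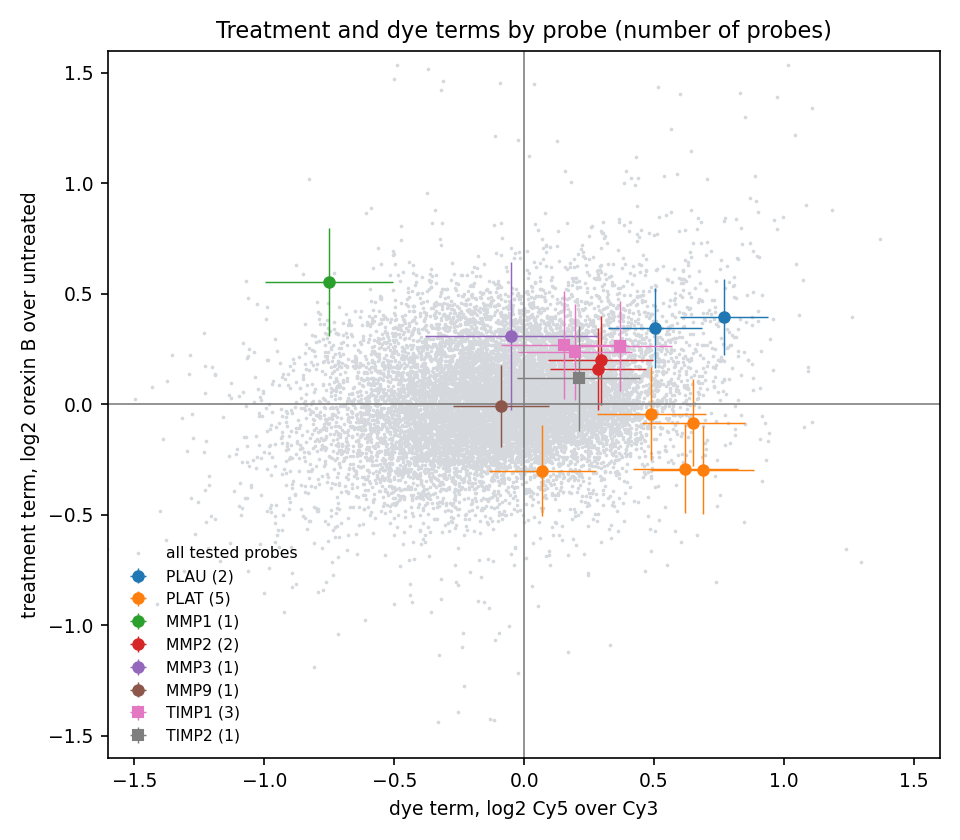
Treatment term against dye term of each member probe, with standard errors, over the grey cloud of all tested probes (4 of them lie outside the axes). PLAU lies furthest to the right at a dye term of 0.77, the PLAT probes lie below 0 on the treatment axis, MMP1 lies furthest to the left at -0.75, and the inhibitors lie at 0.12 to 0.27 on the treatment axis.

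Orientation was taken from each array's own dye labels. The protocol text common to the arrays also allows the reading that treated RNA was in Cy5 on every one. On that reading the mean Cy5 over Cy3 ratio becomes the treatment ratio, with no dye term. PLAU would then stand at 0.77 (limma, adjusted p = 0.256), PLAT at 0.69 (adjusted p = 0.260) and MMP1 at -0.75 (adjusted p = 0.306), so that PLAT and MMP1 change sign. MMP3 would stand at -0.05, and the difference between proteases and inhibitors would be 0.04. For probes above background in both channels, the deposited value table ran with the scanner's ratio on arrays 1 and 3 and against it on arrays 2 and 4, so it follows the dye labels.

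Other genes of plasminogen activation, of metalloproteinases and of their inhibitors showed no common direction. Of 55 genes listed, 20 had a probe and 15 passed the filter, and the median ratio of these was 0.06, against 0.02 over all tested probes. Of the 15, 9 had a ratio above 0 and 6 below it. With the scanner software's ratio, as with the authors' deposited table, 6 were above 0 and 9 below it, and with median centring, which moved the median of all tested probes to 0.28, all 15 were above 0. None passed the adjusted threshold in limma, and 2 genes had an unadjusted p under 0.05, both higher (1.72% of all tested probes were called in that direction). That count was 0 without a dye term and 5 with median centring. It was 1 with the mean of probes, the scanner software's ratio or the authors' table. The other alternatives on all 4 arrays kept it at 2. PLG, SERPINA1, MMP20, ADAM10 and VTN had a probe and did not pass the filter.

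SERPINE2, or protease nexin 1, a serpin that blocks plasminogen activators, stood at 1.24, 0.01, 0.54 and 0.09 on arrays 1 to 4, with a fitted ratio of 0.47 ± 0.19 (limma, unadjusted p = 0.0444, adjusted p = 0.999) and all 3 of its probes above 0. SERPINE2 was thus above 0 on 4 of 4 arrays, although on array 2 and array 4 it stood close to 0. THBD, the thrombomodulin of vessels that turns thrombin towards protein C, stood at 1.48, -0.58, 1.34 and 0.37 (fitted 0.65 ± 0.21, limma, unadjusted p = 0.0170, adjusted p = 0.999). Its partner PROCR, the protein C receptor, was at 0.85 ± 0.41, with 2.94 on array 1 and -1.06 on array 2. The dye terms were 0.42 for SERPINE2, 0.76 for THBD and 1.00 for PROCR, larger than the treatment term for THBD and PROCR. Below 0 stood the secreted protease inhibitor SLPI at -0.28 ± 0.24 and BSG, an inducer of metalloproteinases, at -0.12 ± 0.22.

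The genes with ratios nearest to those of PLAU were sought among 1603 named genes with a value on all 4 arrays, by the Euclidean distance between the 4 ratios. They were SERPINF1 (distance 0.22), MMP14 (0.24), DKK3 (0.24), RPS3 (0.45) and RNASE4 (0.51). MMP14, the membrane metalloproteinase that activates MMP2, stood at 1.25, -0.32, 0.97 and -0.66 on arrays 1 to 4, with a treatment ratio of 0.31 ± 0.18. All 5 genes had a dye term between 0.61 and 0.80, and the likeness rests on 4 arrays that share these dyes.

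Markers of cell types that an explant holds varied between arrays as well. Of 10 fibroblast markers, 4 passed the filter (COL1A2, DCN, LUM and POSTN) and all 4 had a fitted ratio above 0, with array medians of 0.69, 0.23, 0.85 and -0.44, beside 0.82, 0.16, 0.17 and -0.35 for MMP2. The log2 of the summed linear signals of these 4 markers, to which the brightest adds most, was 14.2 to 15.4 in treated RNA and 14.0 to 15.4 in untreated RNA. Of 8 epithelial markers, 5 passed, 1 above and 4 below 0, with array medians of -0.77, -0.65, -0.43 and 0.61. They were thus highest on array 4, where MMP1 and MMP3 also had their highest ratio. On arrays 1 to 3 MMP1 stood at -0.28, 0.64 and -0.11 and MMP3 at 0.33, -0.73 and 0.19, in other orders than the epithelial medians. The log2 of the summed signals of the epithelial markers was 15.6 to 16.6 in treated RNA and 15.9 to 17.1 in untreated RNA. Of 8 macrophage and myeloid markers, 4 passed, 1 above and 3 below 0, with a median of -0.51 beside -0.01 for MMP9. The log2 of the summed signals of these myeloid markers was 12.2 to 12.9 in treated RNA and 12.6 to 13.7 in untreated RNA. The part of these cells in the ratios was not tested. Among these 3 lists, THY1 and MRC1 had a probe that did not pass the filter, and the remaining genes had no probe. The lists for granulocytes, endothelium, smooth muscle, T and NK cells, and trophoblast had 3 tested genes each, with median ratios between -0.34 and -0.15. Of the 3 trophoblast genes, TFAP2C, a transcription factor, was at 1.14 ± 0.19 and above 0 on all 4 arrays (limma, unadjusted p = 0.000584, adjusted p = 0.999), while CYP19A1 and IL1B2 were below 0. It was named after its value was seen.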

How the data were processed

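RNA of treated and untreated explants was hybridised together on 4 two-colour arrays. The deposited spot intensities (median signals and median local backgrounds in both colours) were extracted by Agilent Feature Extraction 10.7.3.1 from design 026440, per the file headers. The deposited log10 ratio sets Cy5 over Cy3 and includes that software's own background and dye corrections, per the file headers. The value table deposited by the authors holds that ratio in log2 form, with the sign turned on arrays 2 and 4. Its medians for arrays 1 to 4 were 0.18, 0.29, 0.01 and 0.03. They were taken over 12158 to 15614 probes per array, and the table was not centred over these probes.

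Signals were corrected by normexp (offset 50) and loess (weight 0 for control spots and outliers), outlier spots were left out, and spots of a probe were averaged (limma 3.58.1, R 4.3.3). Median signals were used because mean signals are not among the columns used here. Of 43603 probes, 13785 passed the filter and 13783 could be fitted with both dye orientations. The fit had a treatment and a dye term (2 residual degrees of freedom), with two-sided p-values adjusted by Benjamini-Hochberg over all tested probes. Signals per channel were set to a common scale by Aquantile. The script was tested on simulated data. The number of arrays limits the precision.

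Probes were named through RefSeq accessions (Sscrofa11.1), which named 6700 probes of 3029 genes. Members, lists and tests were chosen with earlier results of these data known. Every member was named, with pathway genes at an unadjusted p under 0.05 or among the 3 highest or lowest, and the 5 genes nearest to PLAU. A pathway gene that the rule names is not reported here. Alternatives covered the background correction, normalization, ratio source, filter, dye reading, dye term, probe choice and each array left out. No sequences are shown. No column of another series was used.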

Additional observations from a re-analysis of the deposited data

Results flagged for a closer look

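One member value stood far from the others of its gene. The brightest TIMP1 probe had a log2 ratio of orexin B over untreated of 0.96 on array 1, against -0.09, 0.00 and 0.08 on the other arrays, and the gap to the nearest of them was 0.832 of the whole range, above Dixon's critical value for 4 values. In all, 16 such sets of 4 values were examined, and chance alone gives such a gap in about 5% of sets. The other TIMP1 probes were at 1.01 and 1.02 on array 1, with gaps below the critical value.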

How the results depend on the processing

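The 8 member genes stayed without a call on the adjusted p under all 15 alternatives, as did the 15 other pathway genes tested. At an unadjusted p under 0.05 in limma, 1 member was counted without background correction and 1 without the filter on dim probes. The scanner software's ratio and the authors' table each gave 1, median centring 2, and treated RNA taken as Cy5 on every array 3. The other alternatives on all 4 arrays gave 0, as the main fit did. PLAU kept a ratio above 0 throughout (0.35 to 0.79), and so did MMP2 (0.04 to 0.61). Over all probes, limma called 0 for treatment with 4 arrays (495 at an unadjusted p under 0.05) and 0 to 15 on leaving out an array, with 15 without array 2. It called 0 for dye (1950 at an unadjusted p under 0.05) and 0 to 6 on leaving out an array, with 2 without array 2 and 6 without array 4. With median centring in place of loess, 6868 of 13783 probes had a dye effect, and the median dye term of all tested probes was 0.75. The PLAU dye term was then 2.50 (limma, adjusted p = 0.00934), which is 1.75 against that median. The median treatment ratio of all tested probes moved to 0.28. PLAT stood at 0.10 there, which is -0.18 against that median, and MMP9 at 0.29, which is 0.01 against it. On leaving out an array, TIMP1 stood between -0.025 (without array 1) and 0.50, MMP3 between -0.23 (without array 4) and 0.85 (without array 2), and MMP9 between -0.15 and 0.14, with 0.14 without array 3 and 0.014 without array 4. MMP9 was at 0.093 and TIMP2 at -0.12 with the scanner software's ratio, and likewise with the authors' value table. With treated RNA taken as Cy5 on every array, PLAT stood at 0.69, MMP1 at -0.75 and MMP3 at -0.049, and proteases minus inhibitors moved to 0.039. That difference was 0.0068 with the scanner software's ratio and with the authors' value table, and -0.15 to -0.05 on leaving out an array. The PLAU dye term was 0.73 to 0.81 on leaving out an array. Without array 2 no TIMP2 ratio could be fitted, since only treated RNA in Cy5 was left. Keeping outlier spots was chosen after seeing the data. Other causes were not tested. Treated and untreated RNA were paired on each array and the fit used these within-array ratios, so no separate paired analysis was run.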

Other observations

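Some further pathway genes stood close to 0 with their brightest probe. ANXA2, a cell surface receptor of plasminogen and PLAT, had a ratio of 0.14 ± 0.21, with 3 of 3 probes above 0. Its brightest probe stood at -0.02, -0.02, -0.24 and 0.84 on arrays 1 to 4. The other ANXA2 probes had higher ratios, 0.23 ± 0.23 and 0.37 ± 0.17. The last of these stood at 0.59, 0.05, 0.58 and 0.26 on arrays 1 to 4, where 7.41% of tested probes had the same sign on all arrays. MMP12, the macrophage elastase, was at 0.08 ± 0.25, with 0.71 on array 2 and -0.69 on array 4. The sheddases ADAM17 and ADAM9 were at -0.11 ± 0.17 and -0.03 ± 0.19, and ADAMTS1, a protease of versican that progesterone induces in the mouse ovary, was at 0.13 ± 0.17. F3, the tissue factor that starts coagulation, was at 0.01 ± 0.20, and SPINT1, an inhibitor of epithelial serine proteases, at 0.06 ± 0.23.

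The member probes that did not pass the filter had low signals. The dim PLAT probe was well above background on 2 arrays in treated and 2 in untreated RNA, with ratios of -0.27, -0.19, -0.72 and 0.17 on arrays 1 to 4. The dim MMP9 probe was well above background on 3 arrays in each condition, with ratios of 0.35, -0.10, -0.59 and -0.06 on arrays 1 to 4.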
